A study of Chlamydomonas reinhardtii with 4 samples.

Results

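The genes described here encode photoprotective relatives of the light-harvesting antenna proteins in the unicellular green alga Chlamydomonas reinhardtii. They are the genes that the deposited tables name LHCSR, PSBS or ELI followed by a number, 8 of 17741 genes in all: 3 LHCSR genes, 1 PSBS gene and 4 ELI genes. Wild-type cells of strain FACHB-1121 were grown in TAP, a medium that contains acetate, with agitation under light. Exposed cultures received silver nanoparticles (AgNPs) at 0.5 mg/L, and control cultures did not. RNA was collected after 2 h and 12 h. Control and exposed cells at each time make 4 groups, and every group is 1 library. No replicate error exists, so only sizes are given, without any test.

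Antenna proteins pass absorbed light to the photosystems, and under excess light a set of relatives helps to discard it as heat. LHCSR proteins do this in algae: they bind pigment and sense the acidity of the thylakoid lumen. LHCSR3 is best known from high light at low carbon dioxide, and LHCSR1 also from ultraviolet light. PSBS is the corresponding lumen pH sensor of plants, and in Chlamydomonas it is known to appear briefly after a shift to high light. Early light-induced proteins, the ELI group, are known from plants, where they appear during greening and light stress and are thought to hold free chlorophyll.

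The members lie on 5 chromosomes, with coordinates of annotation version 5.5. LHCSR1 (Cre08.g365900) spans bases 1710379 to 1712537 of chromosome 8. LHCSR3 (Cre08.g367400, bases 1936019 to 1938229) and LHCSR2 (Cre08.g367500, bases 1947449 to 1949669) lie on the same chromosome with 9219 bp and 0 listed genes between them. LHCSR1 is 223 kb from LHCSR3, with 32 listed genes between. PSBS1 (Cre01.g016600) spans bases 2809303 to 2811543 of chromosome 1. ELI2 (Cre09.g393173, bases 4040225 to 4041798) and ELI3 (Cre09.g394325, bases 4216201 to 4219737) lie 174 kb apart on chromosome 9, with 30 listed genes between. ELI4 (Cre02.g143550) spans bases 7610686 to 7613094 of chromosome 2, and ELI1 (Cre16.g679250) bases 5660197 to 5662226 of chromosome 16.

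Levels were given as FPKM, fragments scaled to transcript length and to library size. Summed FPKM came to 492502 for control cells at 2 h and lay between 1143199 and 1663726 for the other libraries, so differences between libraries depend on how they are scaled. Read depth is unknown, and no counting interval can be given. Genes listed at 0 made up 13.9% to 16.6% of the tables.

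The 8 genes covered a wide range of levels. ELI2 was abundant, ELI4 stood at a moderate level, ELI1, ELI3 and LHCSR1 stood at a few FPKM at most, and LHCSR2, LHCSR3 and PSBS1 stood near the lowest values that the tables hold. Percentile ranks among all genes of a library, which do not depend on scaling between libraries, put ELI2 between 97.0 and 98.4, ELI4 between 80.1 and 91.8, and LHCSR3 between 20.7 and 28.1. Averaged over the 4 libraries, 2 members reached 5 FPKM (ELI2 and ELI4), and 3 lay between 1 and 5 FPKM (ELI1, ELI3 and LHCSR1).

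**Figure D1:**
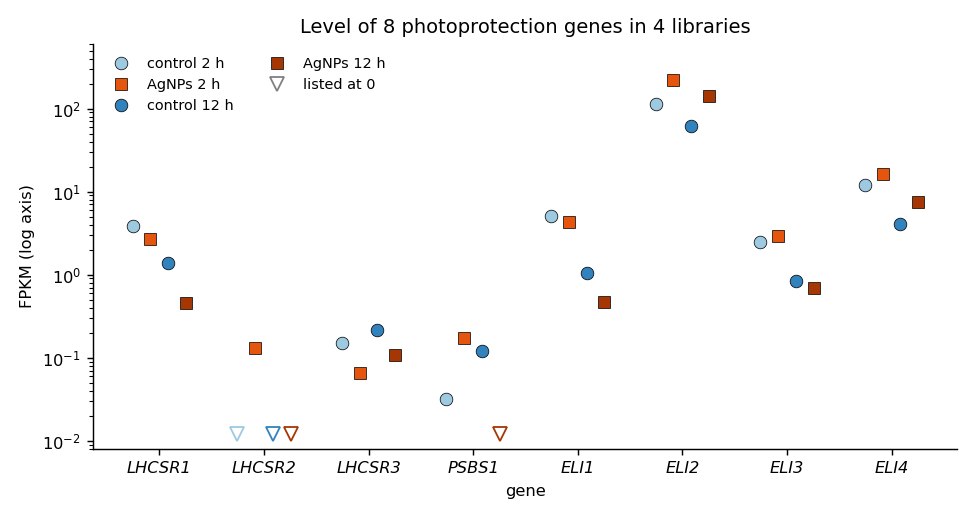
FPKM of the 8 genes on a log axis, 1 point per library; circles are control and squares AgNP libraries, and open triangles mark values listed at 0, which have no place on a log axis. ELI2 stands above all other members in every library, and LHCSR2, LHCSR3 and PSBS1 stay under 0.3 FPKM throughout.

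Among the heat-dissipating proteins, the pair of neighbouring LHCSR genes was close to undetected in all 4 libraries. LHCSR3 stood at 0.151 FPKM in control cells at 2 h, 0.0661 in exposed cells at 2 h, 0.214 in control cells at 12 h and 0.107 in exposed cells at 12 h. LHCSR2 was listed at 0 in both controls and with AgNPs at 12 h, and at 0.130 FPKM in exposed cells at 2 h. The pair is known to encode almost the same protein, and how the authors assigned fragments shared between them is not given, so each value alone is uncertain. The sum of both genes was 0.151, 0.196, 0.214 and 0.107 FPKM in the same order, and neither exposure nor time separated the libraries into high and low.

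PSBS1, the gene for the pH-sensing PSBS protein, stood at 0.0317 FPKM in control cells at 2 h, 0.174 in exposed cells at 2 h and 0.120 in control cells at 12 h, and was listed at 0 in exposed cells at 12 h. To place such values, the 1301 genes that span 2000 to 2500 bp were used, a class that holds PSBS1 and all 3 LHCSR genes. In that class the lowest 5% of values above 0 ended at 0.0658 FPKM in control cells at 2 h, 0.0935 in exposed cells at 2 h, 0.124 in control cells at 12 h and 0.160 in exposed cells at 12 h. PSBS1 lay below this mark in both controls, and LHCSR3 lay below it in both AgNP libraries. LHCSR3 lay above it in both controls, and PSBS1 and LHCSR2 lay above it in exposed cells at 2 h. All these values are low, so differences of LHCSR2, LHCSR3 and PSBS1 between libraries were not read as changes.

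LHCSR1 was the LHCSR gene with the highest level, and it stood lower at 12 h and lower with AgNPs. It stood at 3.87 FPKM in control cells at 2 h, 2.69 in exposed cells at 2 h, 1.39 in control cells at 12 h and 0.459 in exposed cells at 12 h. Both 2 h libraries lay above both 12 h libraries, and within each time the AgNP library was the lower. Its percentile rank was 79.6, 73.4, 62.1 and 43.1 in the same order, so its place among the genes of a library shows the same order without any scaling. On the log2(FPKM + 1) scale, which understates the change of low genes, LHCSR1 differed by -0.40 in exposed cells at 2 h and by -0.71 at 12 h. With a pseudocount of 0.1 the values were -0.51 and -1.42. With FPKM + 1, the 200 genes of nearest mean FPKM had a median of 0.02 at 2 h, with quartiles of -0.25 and 0.31. At 12 h their median was 0.04, with quartiles of -0.25 and 0.26. Their ratios were not taken with a pseudocount of 0.1.

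The ELI genes differed widely in level, with ELI2 far above the rest. ELI2 stood at 112 FPKM in control cells at 2 h, 222 in exposed cells at 2 h, 61.5 in control cells at 12 h and 140 in exposed cells at 12 h. ELI4 stood at 11.9, 16.5, 4.10 and 7.40 FPKM in the same order. In both genes the AgNP library was the higher at each time as deposited, an order that turned at 2 h for both genes with equal sums and for ELI4 with centred ratios, and the 12 h library was the lower with and without AgNPs.

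ELI1 stood at 5.12 FPKM in control cells at 2 h, 4.34 in exposed cells at 2 h, 1.05 in control cells at 12 h and 0.467 in exposed cells at 12 h. ELI3 stood at 2.46, 2.89, 0.829 and 0.687 FPKM in the same order. Both 2 h libraries lay above both 12 h libraries for each gene, and the AgNP library stood below its control at both times for ELI1 and at 12 h for ELI3. Of the summed FPKM of the 4 ELI genes, ELI2 made up 85.3% in control cells at 2 h, 90.3% with AgNPs at 2 h, 91.1% in control cells at 12 h and 94.3% with AgNPs at 12 h.

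Differences were taken as log2 ratios of FPKM + 1, and a gene was counted when it was at least 2-fold apart among the 3271 genes averaging 5 FPKM or more. ELI2 and ELI4 belong to these genes, ELI1, ELI3 and LHCSR1 are described beside genes of like level, and LHCSR2, LHCSR3 and PSBS1 beside genes of like span. Since RNA came from whole cultures, fewer cells with a transcript and less of it per cell cannot be told apart.

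The first question was how the genes differed with AgNPs. At 2 h, 0 of the 2 members averaging 5 FPKM or more were at least 2-fold apart, where 22% of genes stood that much higher and 1.62% that much lower. ELI2 came close to this size, with a log2 ratio of 0.97, and ELI4 had 0.44. The 200 genes of nearest mean FPKM had a median of 0.78 for ELI2 and of 0.45 for ELI4, so both lay near what genes of their level showed. Among genes averaging 1 to 5 FPKM 0 of 3 members were at least 2-fold lower, where 2.86% were. ELI1 differed by -0.20 and ELI3 by 0.17, beside medians of -0.06 and -0.09 for genes of their level.

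At 12 h with AgNPs, 1 of the 2 members, ELI2, was at least 2-fold higher, where 16.7% of genes were, and 0 were lower, where 0.459% were. ELI2 had a log2 ratio of 1.18 and ELI4 of 0.72. Genes of nearest level had a median of 0.84 with an upper quartile of 1.15 for ELI2, and a median of 0.42 with an upper quartile of 0.73 for ELI4. ELI1 differed by -0.49 and ELI3 by -0.12. Among genes averaging 1 to 5 FPKM 0 of 3 members were at least 2-fold lower, where 0.672% were.

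**Figure D2:**
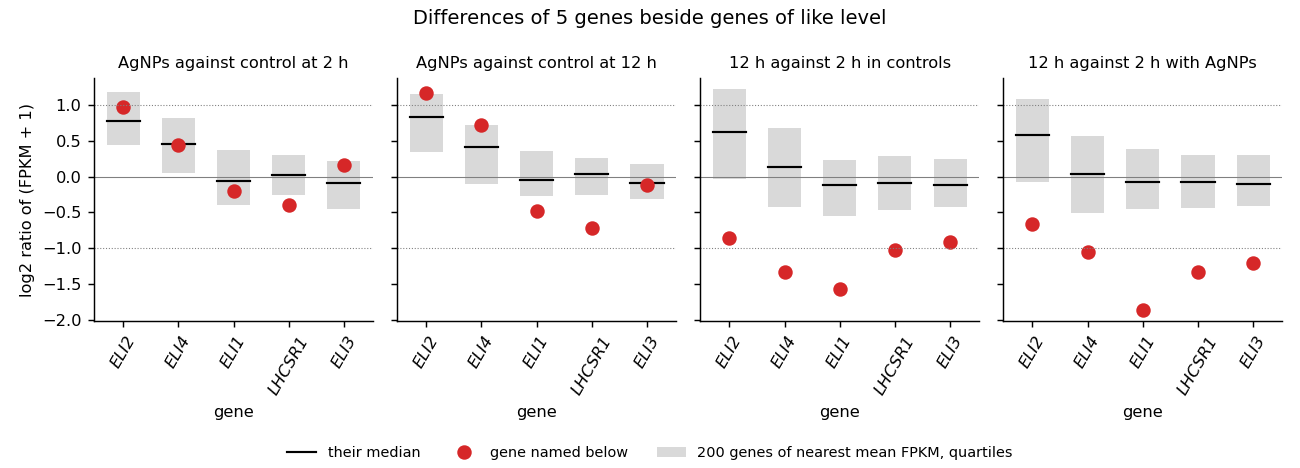
Log2 ratio of FPKM + 1 for ELI2, ELI4, ELI1, LHCSR1 and ELI3 (red points) in the 4 comparisons, beside the median (black line) and quartiles (grey bar) of the 200 genes nearest in mean FPKM; dotted lines mark 2-fold. The red points of both AgNP comparisons fall in or near the grey bars except that of LHCSR1, and ELI1 at 12 h, which lie below them, while all 5 points of both time comparisons lie below their bars.

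The size of the AgNP differences, and for some genes the sign, depended on scaling. With libraries scaled to equal sums of FPKM, ELI2 came to -0.37 (log2) at 2 h and 0.64 at 12 h, and ELI4 to -0.83 and 0.25. The median of those 3271 genes was then -0.77 at 2 h and -0.07 at 12 h, against 0.48 and 0.44 as deposited. With ratios centred on the median gene, ELI2 had 0.49 at 2 h and 0.74 at 12 h, and ELI4 had -0.04 and 0.28. LHCSR1 and ELI1 stood below their controls at both times under all scalings tried, with LHCSR1 between -1.53 and -0.21 at 2 h and between -1.42 and -0.23 at 12 h over scalings and pseudocounts. Genes lower with AgNPs at both times made up 37.6% of those averaging 1 to 5 FPKM, so this direction was common at the level of LHCSR1 and ELI1.

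Ratios between members within a library do not depend on scaling. ELI2 stood 29.1 times as high as LHCSR1 in control cells at 2 h and 82.6 times in exposed cells at 2 h, then 44.2 times in control cells at 12 h and 306 times in exposed cells at 12 h. ELI4 over ELI1 was 2.32, 3.80, 3.89 and 15.9 in the same order. The balance between ELI2 and LHCSR1 was thus 2.84 times as high with AgNPs at 2 h and 6.93 times at 12 h. The denominators at 12 h with AgNPs are values under 0.5 FPKM, which makes these quotients imprecise. Other member pairs that were taken moved less with AgNPs. ELI2 over ELI4 was 1.42 times as high with AgNPs at 2 h and 1.26 times at 12 h. For LHCSR1 over ELI1 these values were 0.82 and 0.74, and for ELI4 over ELI3 they were 1.18 and 2.18. Over all genes, those averaging 5 FPKM or more also stood higher with AgNPs relative to those averaging 1 to 5 FPKM, with median log2 ratios of 0.48 and -0.02 at 2 h and of 0.44 and -0.04 at 12 h.

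**Figure D3:**
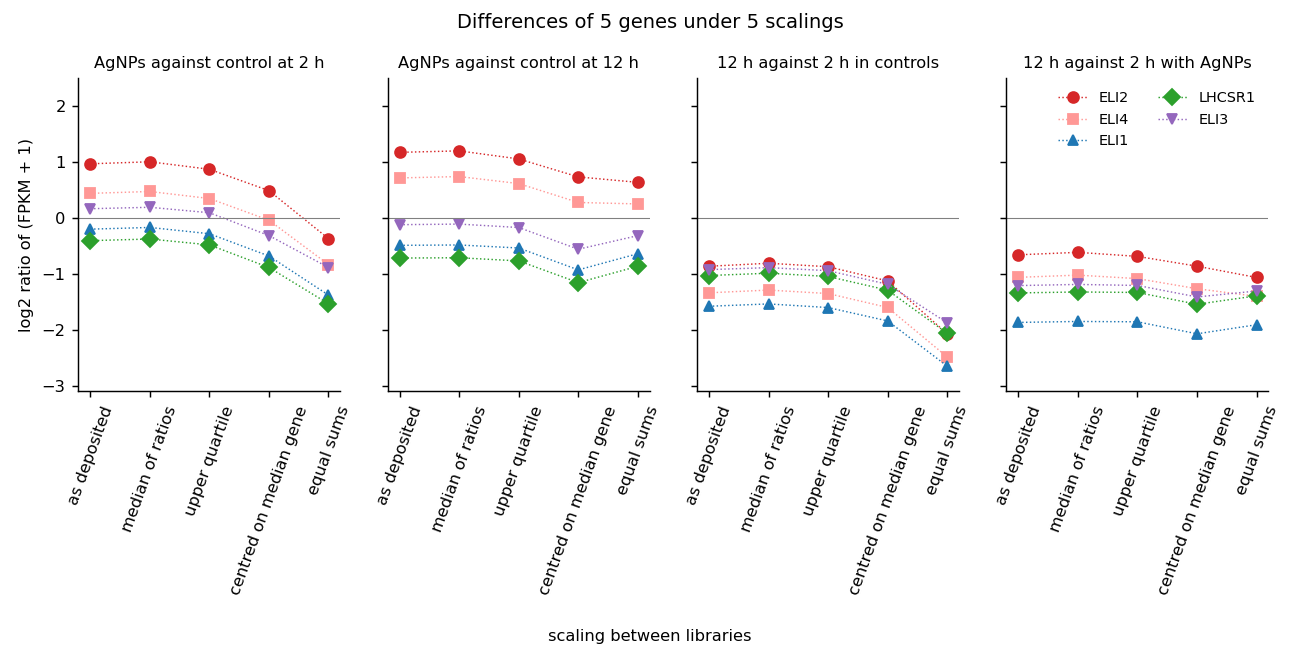
Log2 ratio of FPKM + 1 for 5 genes in the 4 comparisons (panels) under 5 scalings between libraries (horizontal axis), 1 marker per gene. ELI2 and ELI4 in exposed cells at 2 h run from 0.97 and 0.44 as deposited to -0.37 and -0.83 with equal sums, while all 5 genes stay below 0 in both time comparisons.

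Gene span, the distance from start to end with introns, moved with the AgNP ratios among genes averaging 5 FPKM or more. ELI2 is short at 1574 bp. The 200 such genes of nearest span, 1424 to 1741 bp, had a median AgNP difference of 0.87 (log2) at 2 h and of 0.90 at 12 h, beside 0.97 and 1.18 for ELI2. With the trend on span removed, ELI2 had 0.11 and 0.35, and ELI4, of 2409 bp, had -0.22 and 0.06. The part of span in the ELI2 value was not tested.

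The second question was how 12 h differed from 2 h, first without AgNPs. LHCSR1 and the 4 ELI genes all stood lower at 12 h. ELI4 was the 1 of the 2 members averaging 5 FPKM or more that was at least 2-fold lower, at -1.33, where 7.8% of genes were, and 0 were higher, where 20.2% were. ELI2 had a log2 ratio of -0.86, beside a median of 0.62 and a lower quartile of -0.03 for genes of its level. Of the 3 members averaging 1 to 5 FPKM, 2 were at least 2-fold lower, where 5.33% of such genes were: ELI1 had -1.58 and LHCSR1 -1.03. ELI3 had -0.92.

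With AgNPs the same 5 genes stood lower at 12 h. ELI4 was again at least 2-fold lower, at -1.06, where 8.07% of genes were, and 0 were higher, where 17.1% were. ELI2 had -0.66, beside a median of 0.59 and a lower quartile of -0.08 for genes of its level. All 3 members averaging 1 to 5 FPKM were at least 2-fold lower, where 4.56% of such genes were. ELI1 had -1.87, LHCSR1 had -1.34 and ELI3 had -1.21.

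The controls and the AgNP libraries share no library between these comparisons, so they can be set side by side. ELI4, LHCSR1 and ELI1 were at least 2-fold lower at 12 h in both time comparisons, as were 5.17% of genes averaging 5 FPKM or more and 2.6% of those averaging 1 to 5 FPKM. Lower by any size in both stood 31.8% and 43% of genes. The direction held for all 5 genes under the scalings and pseudocounts tried. With equal sums ELI2 had -2.07 in the controls and -1.06 with AgNPs, where the median gene stood at -0.87 and -0.17.

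**Figure D4:**
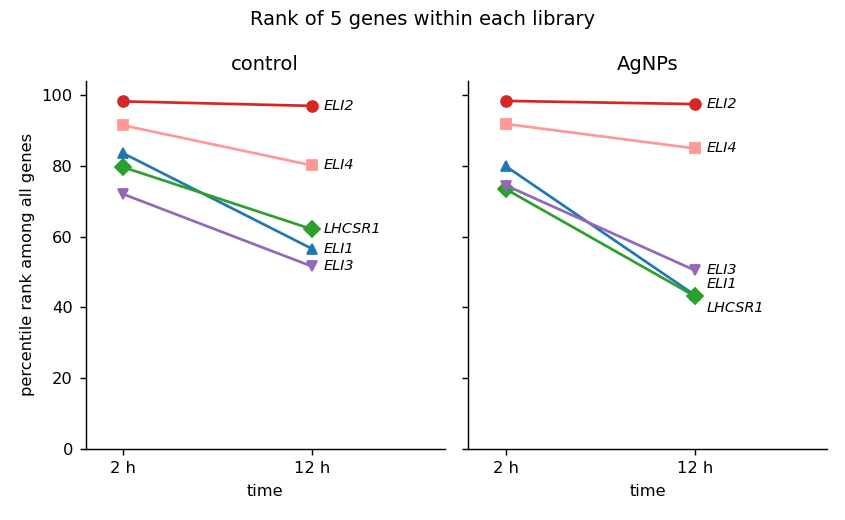
Percentile rank of 5 genes among all genes of their library at 2 h and 12 h, for controls (left) and AgNPs (right); lines join libraries of the same exposure. All lines run downward, from 83.6 to 56.5 for ELI1 in the controls and from 79.8 to 43.4 with AgNPs, and least for ELI2.

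Percentile ranks, which need no scaling between libraries, were lower at 12 h as well. ELI1 went from 83.6 to 56.5 in the controls and from 79.8 to 43.4 with AgNPs, and ELI3 from 72.0 to 51.6 and from 74.4 to 50.4. ELI4 went from 91.5 to 80.1 and from 91.8 to 84.9. ELI2, near the top of the scale, went from 98.3 to 97.0 and from 98.4 to 97.5.

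Other parts of the light-harvesting system did not share a single pattern. The lists that follow were chosen by symbol, with earlier results of these data known, and hold the genes that the tables name. Of 4 carotenoid synthesis genes averaging 5 FPKM or more, 4 were at least 2-fold lower at 12 h in the controls and 4 with AgNPs, against 7.8% and 8.07% of all genes, and their median log2 ratios were -1.72 and -1.56. All 4 stayed at least 2-fold lower in both under each of the 5 scalings. With equal sums 43.6% of all genes averaging 5 FPKM or more were that much lower in the controls and 16% with AgNPs. With centring these shares were 12.4% and 12.4%. ZEP1, the zeaxanthin epoxidase that turns the photoprotective pigment zeaxanthin back into violaxanthin, stood at 10.5 FPKM in control cells at 2 h, 12.4 in exposed cells at 2 h, 3.79 in control cells at 12 h and 3.55 in exposed cells at 12 h. PSY1, the phytoene synthase that starts the pathway, stood at 18.7, 18.4, 6.35 and 4.45. PDS1 and ZDS1, the desaturases that follow it, had time differences of -2.11 and -2.03 in the controls. Their differences with AgNPs were -0.81 and -0.41 at 2 h and -0.25 and 0.18 at 12 h, so that of ZDS1 turned its sign between the times. ZEP1 was picked after its values were seen. The list as chosen also took in HPD1, which belongs to tocopherol and plastoquinone synthesis and had a mean under 5 FPKM, with 0.465 FPKM in control cells at 2 h and 7.89 with AgNPs.

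All 9 LHCA genes and most genes of the photosystem II antenna stood above ELI2 in every library. LHCB7, LHCBM8 and LHCBM9 stood below it in all 4 libraries, and LHCBM5 did so with AgNPs at 12 h, at 139 against 140 FPKM. In the photosystem I antenna 0 of 9 LHCA genes were at least 2-fold apart between the times, and their median ratio was 0.25 without and 0.24 with AgNPs. In the photosystem II antenna 2 of 11 genes were at least 2-fold higher at 12 h in the controls and 0 lower. With AgNPs 1 was higher and 3 were lower. Beside both antenna lists, 20.2% of all genes averaging 5 FPKM or more stood that much higher without AgNPs, and 7.8% that much lower. For the AgNP libraries these shares came to 17.1% and 8.07%. With equal sums 4 LHCA genes and 7 photosystem II antenna genes were at least 2-fold lower at 12 h in the controls, where 43.6% of all genes averaging 5 FPKM or more were, and 1 and 6 with AgNPs, where 16% were. LHCBM9 and LHCBM4 were picked after their values were seen. LHCBM9, an antenna gene known from nutrient stress, ran against the ELI genes, at 5.61 FPKM in control cells at 2 h, 6.48 in exposed cells at 2 h, 29.3 in control cells at 12 h and 28.6 in exposed cells at 12 h. LHCBM4 stood at 441, 450, 247 and 148 FPKM in the same order. With AgNPs at 2 h, 2 of 11 photosystem II antenna genes and 3 of 9 LHCA genes were at least 2-fold higher. So were 22% of all genes. At 12 h 0 and 2 were, against 16.7%. With centred ratios none were at either time, where 5.47% and 3.03% of all genes averaging 5 FPKM or more were. With equal sums none were, where 0.795% and 2.32% were. Equal sums put 5 photosystem II antenna genes and 1 LHCA gene at least 2-fold lower at 2 h, where 35.6% were. At 12 h they put 2 and 0 lower, where 5.78% were. Centring put 2 and 0 lower at 12 h, where 5.35% were. As deposited, LHCBM1 and LHCBM3, of the main antenna of photosystem II, had log2 ratios of 1.23 and 1.11 at 2 h, and LHCA7 and LHCA1 had 1.39 and 1.27. As a share of the median LHCA level, ELI2 stood at 11.2% in both 2 h libraries, at 4.27% in control cells at 12 h and at 5.99% with AgNPs at 12 h. As a share of the median LHCBM level it stood at 10.3% in control cells at 2 h and 16.4% in exposed cells at 2 h, and at 8.46% and 18.6% at 12 h.

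**Figure D5:**
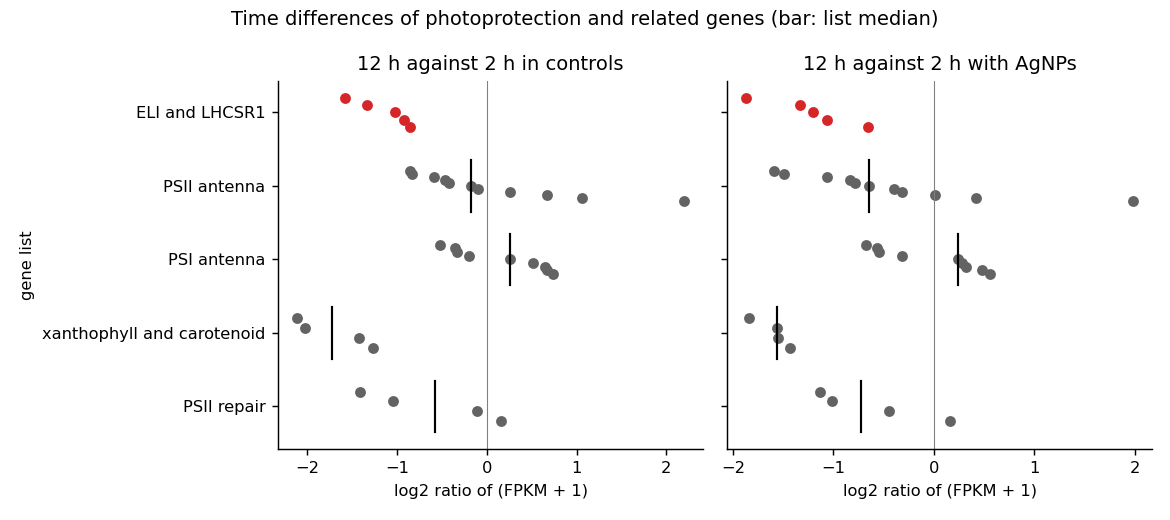
Log2 ratio of FPKM + 1 at 12 h against 2 h, for controls (left) and AgNPs (right); each point is 1 gene, and bars mark the median of a list. The red points of LHCSR1 and the ELI genes and the points of the carotenoid list all lie below 0, whereas, as deposited, those of both antenna lists lie on both sides.

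Small antenna relatives outside the ELI group include OHP1 and HLIP. OHP1, a one-helix protein gene, stood at 44.1 FPKM in control cells at 2 h, 91.9 in exposed cells at 2 h, 53.8 in control cells at 12 h and 115 in exposed cells at 12 h. HLIP, a high light-induced protein gene that was added after its values were seen, stood at 38.6, 60.3, 25.9 and 46.6. Both stood higher with AgNPs at each time, except at 2 h with equal sums (-0.29 for OHP1 and -0.69 for HLIP). HLIP was lower at 12 h under each of the 5 scalings, with -0.55 in the controls and -0.37 with AgNPs as deposited. OHP1 was not lower at 12 h, except with equal sums (-0.92 in the controls and -0.08 with AgNPs). ELI2 stood 2.55 times as high as OHP1 in control cells at 2 h and 2.41 times in exposed cells at 2 h, but 1.14 and 1.22 times at 12 h. Against HLIP it stood 2.92 and 3.68 times as high at 2 h, and 2.37 and 3.02 times at 12 h.

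Of 4 photosystem II repair genes, 2 were at least 2-fold lower at 12 h in the controls and 2 with AgNPs, against 7.8% and 8.07% of all genes. With median of ratios scaling these counts were 1 and 1. With equal sums they were 4 and 2, where 43.6% and 16% of all genes averaging 5 FPKM or more were that much lower. THF1, known in photosystem II assembly and repair, stood at 41.3 FPKM in control cells at 2 h and 14.8 in control cells at 12 h, and at 35.6 and 15.7 with AgNPs. HSP70B, a plastid chaperone gene, stood at 33.5 and 15.8, and at 32.0 and 15.4 with AgNPs. The other genes of this list, TEF30 and PSB28, were less than 2-fold apart between the times. TEF30 had log2 ratios of -0.11 in the controls and -0.44 with AgNPs, and PSB28 had 0.16 and 0.16. Against the control, PSB28 with AgNPs had 0.94 at 2 h and 0.95 at 12 h, and TEF30 had 0.38 and 0.04. With AgNPs 0 of the 4 were at least 2-fold apart from the control at either time as deposited, and 2 were at least 2-fold lower at 2 h with equal sums, where 35.6% of all genes were. Of the electron flow list only PETO and NDA2 were named in the tables, and both differed by less than 2-fold in all 4 comparisons as deposited. With equal sums both were at least 2-fold lower at 12 h in the controls, where 43.6% of all genes averaging 5 FPKM or more were. With AgNPs at 2 h 1 of them was, where 35.6% were. Of the light signalling list CRB1 and CCM1 are examples. CRB1, a circadian clock gene, differed between the times by -0.55 in the controls and by -1.13 with AgNPs, and whether these differ was not tested. CCM1, the regulator of the response to low carbon dioxide and of LHCSR3, had a mean under 5 FPKM and stood at 7.17 FPKM in control cells at 2 h, 3.57 in exposed cells at 2 h, 2.67 in control cells at 12 h and 1.44 in exposed cells at 12 h. LCR1, a further regulator of the low carbon dioxide response, was listed at 0 in all 4 libraries. The list also took in TEF14, whose role is not described here, at 167, 327, 262 and 487 FPKM.

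The genes nearest in pattern were sought among 1174 named genes averaging 5 FPKM or more, by the largest difference between centred log2(FPKM + 1) profiles over the 4 libraries. Nearest to ELI4 were CCB1, a gene for cytochrome b6 assembly, at a largest difference of 0.05, CPLD12 at 0.07 and CAH3, a thylakoid carbonic anhydrase gene, at 0.10. CCB1 stood at 17.0 FPKM in control cells at 2 h, 23.4 in exposed cells at 2 h, 6.49 in control cells at 12 h and 10.8 in exposed cells at 12 h. Nearest to ELI2 were the plastid ribosomal protein gene PRPL31 at 0.14, CPLD33 at 0.14 and NRM1 at 0.19. With 4 libraries such a likeness rests on 3 independent differences.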

How the data were processed

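Messenger RNA of 4 cultures was sequenced on an Illumina HiSeq instrument, after Trizol extraction, per the labels' protocols. The authors deposited FPKM for each gene, per the file headers. The submitters' processing notes list Cuffdiff with no version. For the aligner, filters and library scaling, the entry is "not given in the sources used here". All 17741 genes were read from the 4 tables, and groups came from the sample titles. Starts count from 0 in the tables and are printed from 1. All 8 members matched a RefSeq start of the same annotation version.

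The members and gene lists were chosen with earlier results of these data known. For each comparison the log2 ratio of FPKM + 1 was taken, those averaging 5 FPKM or more were compared and 2-fold was counted. All members are named, with the 3 nearest genes in pattern for those past the filter and up to 4 genes per list, to which HLIP, ZEP1, LHCBM4 and LHCBM9 were added after their values were seen. Other settings tried were pseudocounts of 0.1 and 5, no filter, a filter at 20 FPKM, median of ratios, upper quartile and equal sum scaling, centring, removal of a lowess trend on span (fraction 0.5), and 1.5-fold and 4-fold. Percentile ranks and the 200 genes of nearest level or span were added later. The code was tested on simulated data. Python 3.11.15, pandas 2.3.3 and statsmodels 0.14.6 were used.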

Additional observations from a re-analysis of the deposited data

Results flagged for a closer look

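Opposite signs between groups were found for ELI3 and PSBS1, and these differences were not tested because there is 1 library per group. ELI3 stood at 0.17 (log2 ratio) with AgNPs at 2 h and -0.12 at 12 h, and with ratios centred on the median gene both were negative, at -0.31 and -0.56. PSBS1 had 0.19 and -0.16 with AgNPs at 2 h and 12 h. Its time difference was 0.12 in the controls and -0.23 with AgNPs. With centred ratios PSBS1 was negative throughout, at -0.29 and -0.60 with AgNPs at 2 h and 12 h. Its centred time differences were -0.14 in the controls and -0.43 with AgNPs. All 4 PSBS1 values lie under 0.2 FPKM, of which 1 is listed at 0.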

How the results depend on the processing

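The labels number no replicates that could be paired, and no value here comes from a test. A model that treats the 2 times as pairs, leaving 1 residual degree of freedom, was not run. As described, 0, 1, 1 and 1 of the members past the filter were at least 2-fold apart for AgNPs at 2 h, AgNPs at 12 h, time in controls and time with AgNPs. For AgNPs at 2 h the count became 1 with median of ratios scaling, 1 at 1.5-fold and 2 with the 12 h control as the reference, which also holds the time difference. For AgNPs at 12 h it became 0 with equal sums, centring, span trend removal or 4-fold and 2 at 1.5-fold. For time in the controls it became 3 with no filter, 2 with equal sums, centring, span trend removal or 1.5-fold, and 0 with a pseudocount of 5, a mean of at least 20 FPKM or 4-fold. For time with AgNPs it became 4 with no filter, 2 with equal sums, span trend removal or 1.5-fold, and 0 with a pseudocount of 5, a mean of at least 20 FPKM or 4-fold. The share over all genes also moved with the setting. At least 2-fold lower at 12 h in the controls stood 7.8% as described, 43.6% with equal sums, 12.4% with centring and 3.11% with no filter. In the time comparison with AgNPs it was 8.07%, 16%, 12.4% and 2.8% in the same order. At least 2-fold higher with AgNPs at 12 h stood 16.7% as described, 2.32% with equal sums, 3.03% with centring and 3.88% with no filter. For AgNPs at 2 h it was 22%, 0.795%, 5.47% and 4.66% in the same order. For settings other than equal sums, centring and no filter, no such share is given. The member counts there can therefore not be set beside all genes. Over 208 recomputed member ratios 0 that were at least 2-fold changed sign, 11 fell under 2-fold, 23 came to at least 2-fold, 1 of them with the opposite sign, 14 smaller ones changed sign (that one included) and 2 ratios of 0 took a value. Low values limit LHCSR2, LHCSR3 and PSBS1 most.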
